A study of Rattus norvegicus with 102 samples.

Results

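The 34 CA1 libraries among the 102 hippocampal poly-A RNA libraries of the study came from male Fischer 344 rats whose identifiers fall into 2 series, one numbered R9 (16 rats) and the other numbered R1 or R2 (18 rats, R1-R2 below). All 34 columns of CA1 were taken, and the series was read from the rat number in each column name. The comparison asked how CA1 tissue differed between the series once the rat group was taken into account, and which neighbouring tissues and cell types the dissections carried. Each series held the study's 3 rat groups, namely young rats (Y, 5 in each series), aged rats unimpaired in a spatial memory task (OG, 6 in each) and aged rats impaired in it (OB, 5 in R9 and 7 in R1-R2). Each library is CA1 of 1 rat, dissected by hand from 1 hippocampus, with no treatment beyond the behavioral testing that all rats had. The study obtained and tested its rats at 2 sites, and R9 (5 young, 11 aged) and R1-R2 (5 young, 13 aged) have as many rats of each age as the sites had, but the labels do not tie a series to a site. Site, rat colony, dissection and identifier series therefore cannot be told apart here.

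CA1 is a thin sheet of pyramidal neurons on the dorsal side of the hippocampus. Its outer surface is the alveus, a layer of myelinated axons that runs on into the fimbria, and beyond that lies the lateral ventricle, lined by ciliated ependymal cells and holding the choroid plexus, the epithelium that makes cerebrospinal fluid. CA2 and CA3 continue the sheet at one end and the subiculum at the other, the dentate gyrus (DG) lies across the hippocampal fissure, and the thalamus lies beneath. A piece of CA1 lifted out by hand can include any of these neighbours, and each has transcripts that mark it.

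Reads on genes, recovered from the deposited normalized counts, ranged from 7185647 to 17306878 in R9 and from 5360495 to 21467303 in R1-R2, and a difference between their means did not pass the test (two-sided permutation test, p = 0.715, 100000 resamples). Genes above 0 numbered 15942 to 19663 in R9 and 15153 to 19799 in R1-R2 (permutation test, p = 0.395). They were fewest in R2232 (15153), R2230 (15768), R9874 (15942) and R2233 (16688). The 10 most abundant genes took 3.61% to 5.55% of the counts in R9 and 3.18% to 4.04% in R1-R2 (permutation test, p = 2e-05, the smallest that these resamples can give). The summed level of CA1 pyramidal neuron markers, which adds the normalized counts of the listed genes, was highest in the CA1 library of the rat in 18 of 18 R1-R2 rats and in 13 of 16 R9 rats. The 3 exceptions were R9865 and R9869, whose DG libraries had 10161 and 9977 against 10104 and 2118 in CA1, and R9879, whose CA3 library had 12839 against 9988. The library labelled CA1 of R9869 also had the highest striatal sum, 19675 against at most 3729 in the other R9 libraries and 2659 in R1-R2. Choroid plexus sums were highest in R9870 (180646), R9865 (145845), R9862 (23638) and R2231 (11538), followed by R9869 (6612), and meningeal sums in R2231, R9870, R9865 and R2175. Many results below are also given without these 6 rats (R9862, R9865, R9869, R9870, R2175 and R2231) or without the 3 exceptions.

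With limma, a linear model for each gene with moderated variance, on log2(normalized count + 1) and the rat group as a covariate, 723 of 16385 genes were higher in R9 (4.41%) and 513 were lower (3.13%) at an adjusted p under 0.05. Myelin, choroid plexus, ependymal, astrocyte and microglial genes were among those higher in R9, and genes of CA1 pyramidal neurons and interneurons were among those lower. The median log2 difference over all tested genes, R9 minus R1-R2, was 0.02. In these bulk samples fewer cells of a type and less RNA per cell cannot be told apart. Without the 6 rats 342 genes passed, 171 in each direction, and without the 3 exceptions 661 passed. Of the 1236 genes that passed in all rats, 1225 were tested without the 6 rats, and all 1225 kept their sign.

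**Figure D1:**
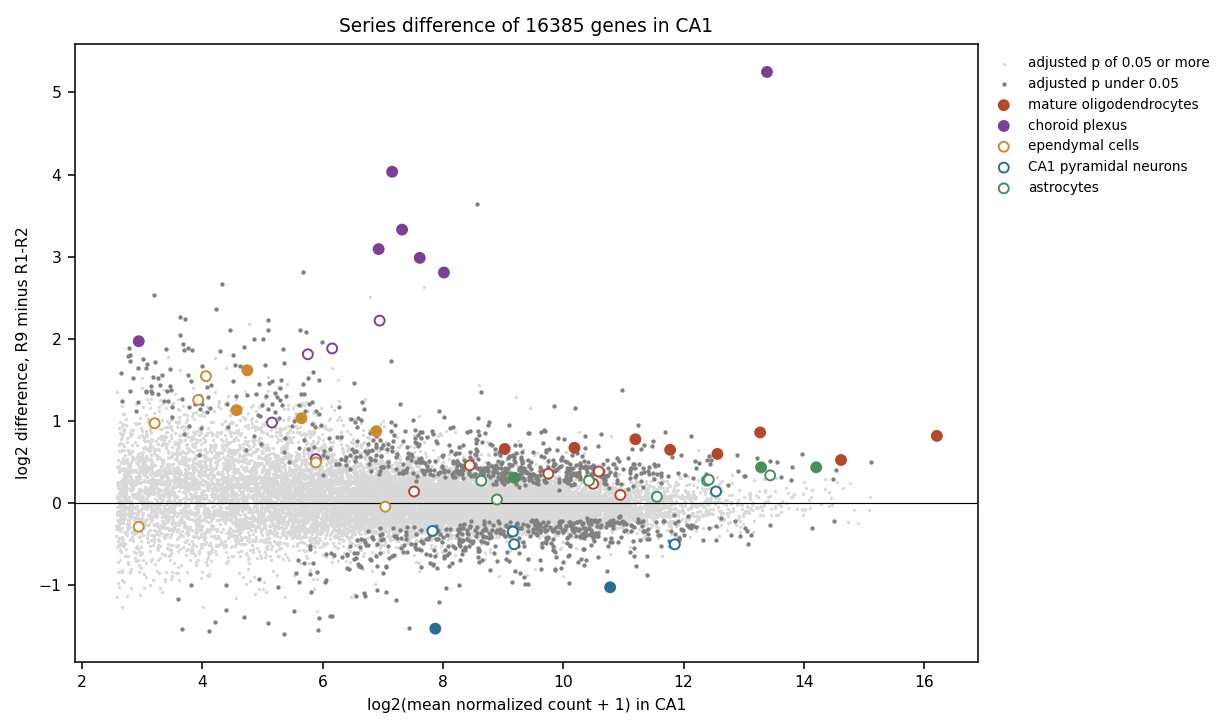
Each point is a gene tested in CA1, placed by log2(mean normalized count + 1) on the x axis and by the log2 difference of R9 minus R1-R2 on the y axis. Coloured points are genes of 5 marker lists, filled where the adjusted p was under 0.05. Mature oligodendrocyte genes lie above 0, choroid plexus genes reach 5.25 and CA1 pyramidal neuron genes reach down to -1.53.

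Transcripts of mature oligodendrocytes, the cells that wrap axons in myelin, were higher in CA1 of R9 rats. Over all tested genes 4.41% were higher and 3.13% lower. Of 14 listed genes, 8 passed the test as higher and 0 as lower, all 14 had a difference above 0, and the median difference was 0.56 on the log2 scale against 0.02 over all genes. Their summed level had a lowest, median and highest value of 94040, 163486 and 237096 in R9 and of 61746, 99291 and 144888 in R1-R2. Thus 13 of 16 R9 libraries lay above every R1-R2 library, and the medians differed 1.65-fold. Mbp, a structural protein of compact myelin and the main term of this sum, had 56575, 101266 and 135100 normalized counts in R9 and 30673, 51550 and 104271 in R1-R2, a log2 difference of 0.82 (SE 0.12, adjusted p = 5.6e-05). All 16 R9 libraries were above the R1-R2 median for Mbp. Mobp, a second myelin protein, had 6877, 13020 and 20549 in R9 and 4107, 6984 and 10776 in R1-R2 (0.86, SE 0.10, adjusted p = 3.7e-06). Cldn11, the claudin of myelin tight junctions, differed by 0.78 (SE 0.13, adjusted p = 0.00022), with 13 of 16 R9 libraries above every R1-R2 library. Without the 6 rats 6 of the 14 passed, with a median of 0.47.

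Several of the genes with the smallest p had values that nearly separated the series. Usp54, a member of the ubiquitin-specific protease family, had 2463, 3554 and 4400 normalized counts in R9 and 1363, 2305 and 2702 in R1-R2 (0.69, SE 0.08, adjusted p = 3.7e-06). Kif1c, a kinesin motor, Ptpn11, the phosphatase SHP2, Otud7b, a deubiquitinase, and Fam83d each had 15 of 16 R9 libraries above every R1-R2 library, with differences of 0.81, 0.64, 0.67 and 0.82. Plekhb1, Trak2 and Plekhg3 had 14 of 16, with differences of 0.58, 0.53 and 0.84. Fth1, the ferritin heavy chain that stores iron, had 8456, 11405 and 14730 in R9 and 4943, 7895 and 10626 in R1-R2 (0.55, SE 0.07, adjusted p = 9.3e-06). Cryab, a small heat shock protein abundant in glia, had 816, 1669 and 2487 in R9 and 339, 731 and 1667 in R1-R2 (1.15, SE 0.15, adjusted p = 9.3e-06). All 16 R9 libraries lay above the R1-R2 median for both genes. Tns3, a tensin, and Mettl7a differed by 0.43 and 0.56, also with 16 of 16 above that median. Of the 15 genes with the smallest p in this direction, 2 carry no symbol in the table.

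Across all tested genes, the 34 libraries separated the series without overlap for 5 (0.0305%), 2 of which carry no symbol. Kif3a, a kinesin needed for transport in cilia and axons, had 962 to 1192 normalized counts in R9 and 1295 to 1722 in R1-R2 (-0.41, SE 0.05, adjusted p = 7.5e-07). Rasgrf1, a neuronal exchange factor for Ras, had 5098 to 9152 in R9 and 9162 to 11536 in R1-R2, a gap of only -0.0015 on the log2 scale. Fads1, a fatty acid desaturase, was the named gene with the opposite direction, with 2972 to 4356 in R9 and 2160 to 2951 in R1-R2 (0.35, SE 0.05, adjusted p = 5.8e-05). The genes without a symbol had differences of -0.90 and 1.38.

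**Figure D2:**
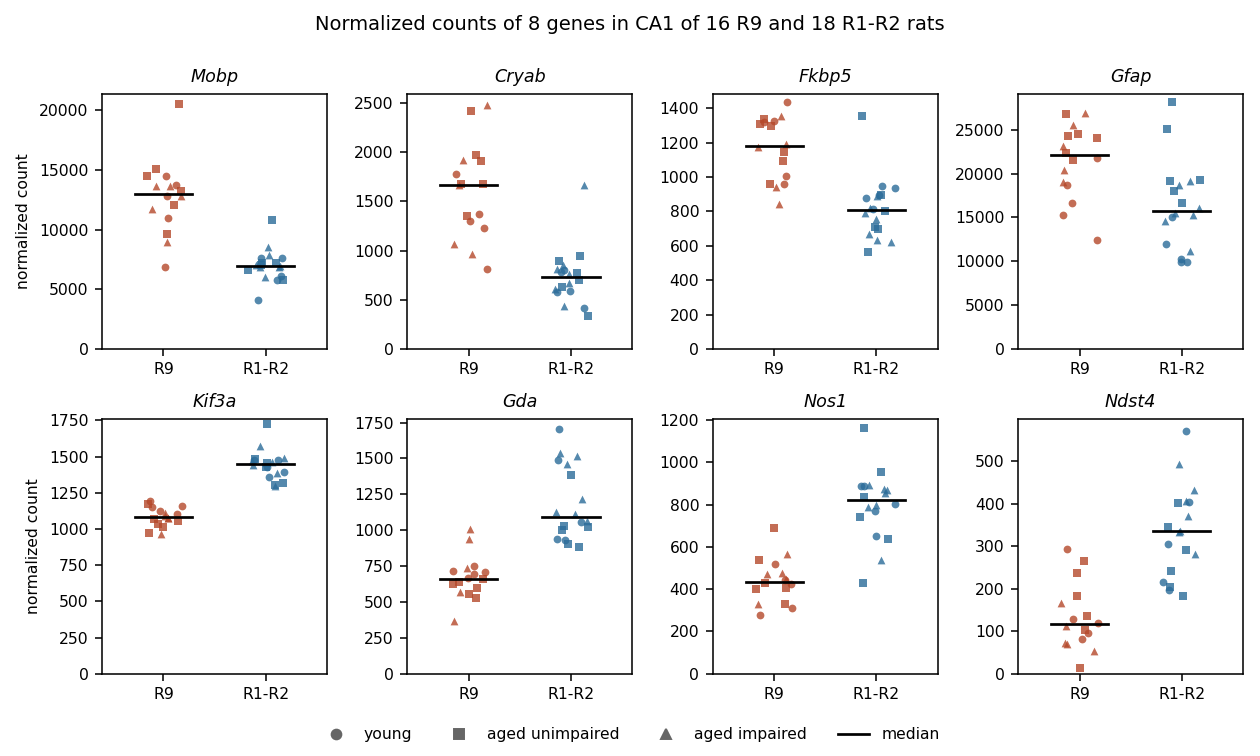
Normalized counts (y axis, from 0) of 8 genes in CA1 of each rat, by series on the x axis, with symbols for the rat group and a bar at the median. The upper genes were higher in R9 and the lower genes lower, and Kif3a is the gene without overlap, with all R9 libraries at or under 1192 and all R1-R2 libraries at or over 1295.

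The 2 lists of ventricular tissues had the highest medians of the 26 lists. Of all tested genes 4.41% were higher in R9 and 3.13% lower. Of 12 choroid plexus genes tested, 7 were higher in R9 and 0 lower, and the median difference was 2.51. The summed level was 182, 756 and 180646 in R9 and 1.92, 144 and 11538 in R1-R2, so every R9 library was above the R1-R2 median while only 3 were above the highest R1-R2 library. Such sums are set mainly by their most abundant gene, here Ttr, transthyretin, the main secreted protein of the choroid plexus. It had 89.6, 570 and 164721 normalized counts in R9 and 0, 24.9 and 10136 in R1-R2 (5.25, SE 1.1, adjusted p = 0.0023). Clic6, a chloride channel family member, had 4.25, 33.2 and 1993 in R9 and 0, 1.48 and 162 in R1-R2 (4.03, SE 0.75, adjusted p = 0.00077). Folr1, the folate receptor of this epithelium, differed by 3.09 (SE 0.70, adjusted p = 0.0047), and Slc4a5, a bicarbonate transporter, and Kl, the ageing-related protein klotho, differed by 2.81 and 2.98. Sostdc1 (3.33) and Mfrp (3.64), which was not on the list, were also among the largest differences. Without the 6 rats, whose libraries include the 4 with the highest choroid plexus sums, 5 of 10 passed and the median was 1.78, with Ttr at 4.24 (adjusted p = 0.0034) and Clic6 at 3.07 (adjusted p = 0.0006). Without the 3 exceptions 3 of 11 passed, with a median of 2.34. The list's median was 4.15 by edgeR and 4.26 by DESeq2, both fitted to recovered reads. The medians of the summed level differed 5.26-fold between the series. Why the tools gave different medians was not tested. The median was 0.83 in young rats alone and 4.71 in OG rats alone.

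Ependymal genes were less abundant and passed less firmly, beside the same 4.41% of all tested genes higher and 3.13% lower. The test called 4 of 10 as higher in R9 and 0 as lower, with a median of 1.0, and the summed level was 233, 469 and 1076 in R9 and 165, 338 and 614 in R1-R2. Hydin, a protein of the central apparatus of motile cilia, had 34, 125 and 361 in R9 and 19.1, 70.4 and 144 in R1-R2 (0.87, SE 0.28, adjusted p = 0.048). Dnah6, an axonemal dynein chain, differed by 1.03 (SE 0.31, adjusted p = 0.033), Dynlrb2 by 1.61 (SE 0.51, adjusted p = 0.045) and Ccdc153 by 1.13 (SE 0.31, adjusted p = 0.021), the last with 12 of 16 R9 libraries above every R1-R2 library. None of the 10 passed without the 6 rats (median 0.84) or without the 3 exceptions (median 0.81). Leaving out 1 rat at a time ended the calls of Hydin and Dynlrb2 for 23 rats each and of Dnah6 for 9, with the largest adjusted p at 0.1 and 0.099 without R9870 and 0.059 without R9869. Tekt1, a ciliary microtubule protein, and Rarres2 did not pass in all rats (0.49 and -0.05).

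**Figure D3:**
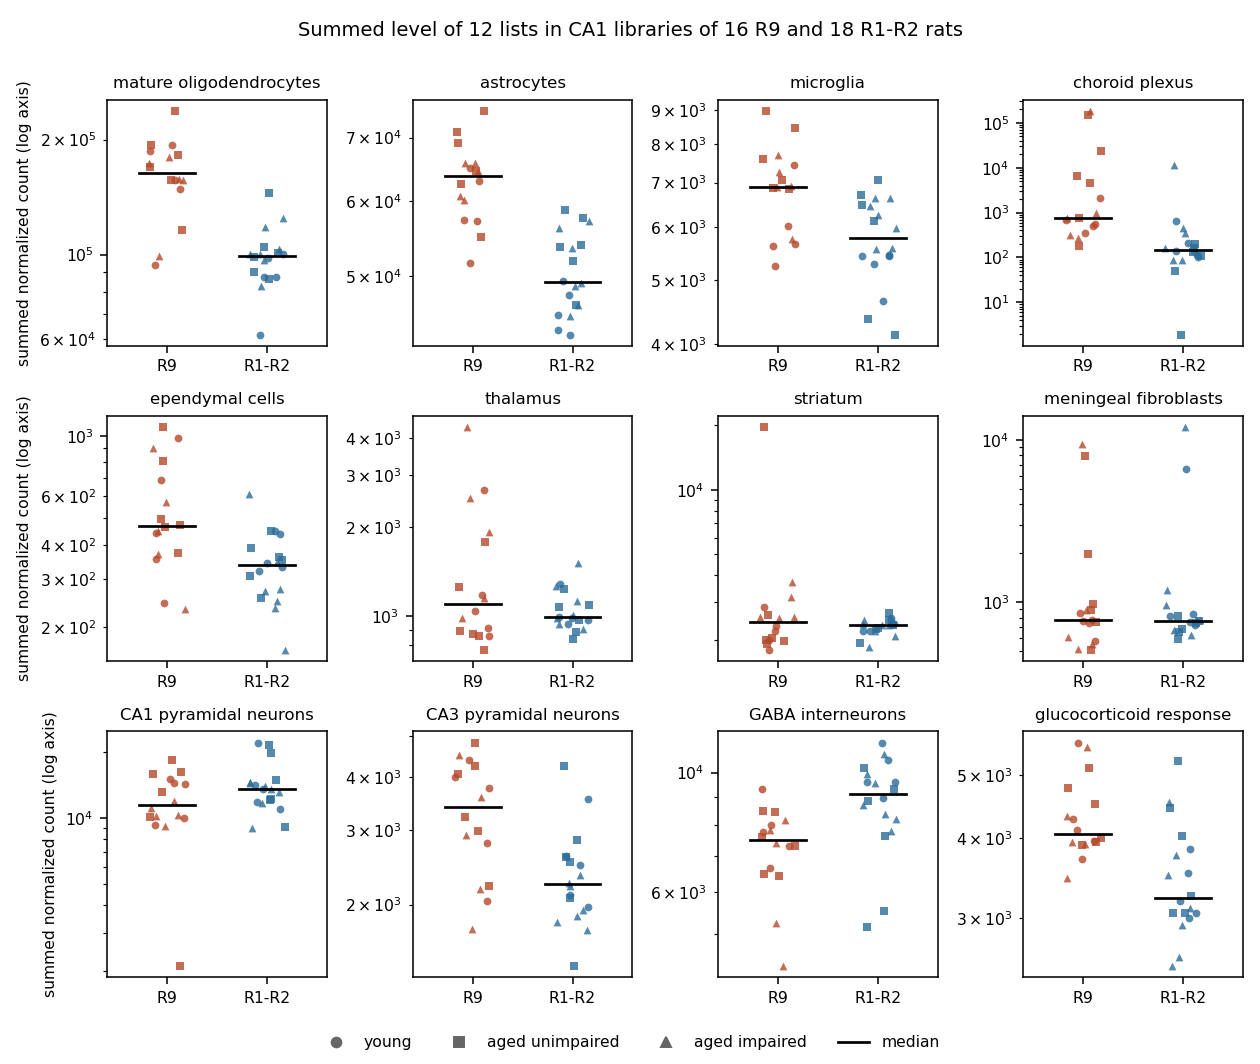
Summed normalized count (log y axis) of 12 gene lists in each CA1 library, by series on the x axis, with symbols for the rat group and a bar at the median. Oligodendrocyte and astrocyte sums are higher in R9 in most libraries, choroid plexus sums are above the R1-R2 median in all R9 libraries with a few far higher (up to 180646), and striatal and meningeal sums are high in a few libraries (up to 19675 and 11989).

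Signal from beneath and beside the hippocampus was uneven, beside 4.41% of all tested genes higher in R9 and 3.13% lower. Of 10 thalamic genes, 5 were higher in R9 and 1 was lower, with a median of 0.87, and their sum was 767, 1098 and 4367 in R9 and 834, 990 and 1507 in R1-R2, with 5 R9 libraries above every R1-R2 library and 7 below the R1-R2 median. Zic1, a zinc finger factor of thalamic and other midline neurons, had 13.6, 111 and 785 in R9 and 0, 50.4 and 250 in R1-R2 (1.73, SE 0.56, adjusted p = 0.05). Prkcd, a protein kinase C isoform of thalamic relay neurons, had 110, 204 and 1871 and 82.0, 138 and 337 (0.91, SE 0.28, adjusted p = 0.039). Tnnt1 differed by 1.03 (adjusted p = 0.039) and Slitrk6 by 0.77 (adjusted p = 0.036), whereas Ntng1, an axon guidance protein, was lower (-0.61, SE 0.14, adjusted p = 0.0048). Without the 6 rats 0 of 9 thalamic genes tested passed, and without the 3 exceptions only Ntng1 did (-0.60, adjusted p = 0.02). The calls of Zic1, Tnnt1, Prkcd and Slitrk6 were each lost without single rats, 24, 17, 16 and 9 of them, with the largest adjusted p at 0.095, 0.076 and 0.083 without R9870 and 0.07 without R9875. None of 8 striatal genes passed by limma (1 at an unadjusted p under 0.05), whereas edgeR and DESeq2 each called 2 as higher in R9. The striatal median was 0.46 in all rats, 0.08 without the 6 rats and -0.09 in young rats alone. None of 4 habenular genes passed by limma, edgeR or DESeq2 (1 at an unadjusted p under 0.05, median -0.27). Among 11 neocortical genes, Lamp5 was higher (0.85, adjusted p = 0.0093) and Fezf2 (-0.70, adjusted p = 0.019) and Nr4a2 (-0.60, adjusted p = 0.033), transcription factors of deep layers, were lower, and 0 of the 11 passed without the 6 rats. Nr4a2 did not pass without any of 6 single rats, the largest adjusted p being 0.062 without R9872. Of the 8 pituitary genes, 6 were under the filter on low values, and Lhb, the luteinizing hormone subunit, was near the floor, with medians of 8.06 in R9 and 3.19 in R1-R2 (1.37, adjusted p = 0.023, and 0.051 without R9870).

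Meningeal and vascular genes passed in small numbers, beside 4.41% of all tested genes higher in R9 and 3.13% lower. Of 12 meningeal fibroblast genes 1 passed, Dcn, the matrix proteoglycan decorin, which was lower in R9, with 88.6, 120 and 240 normalized counts against 130, 276 and 865 in R1-R2 (-1.21, SE 0.21, adjusted p = 0.00037). For Dcn 9 of 16 R9 libraries were below every R1-R2 library and 16 of 16 were below the R1-R2 median. Lum and Igf2, which mark the same fibroblasts, had differences of -0.30 and 1.16 and did not pass. The list's median was -0.06 by limma and -0.65 by edgeR, and 0.94 in OG rats alone. In all rats none of 9 endothelial genes (median 0.06) and none of 7 mural genes (0.12) passed by limma, edgeR or DESeq2, with 0 and 1 at an unadjusted p under 0.05 in limma. Without the 6 rats 1 of the 7 mural genes passed as higher in R9 by limma (list median 0.02). Of 4 genes of red blood cells, Alas2, the erythroid enzyme of heme synthesis, was higher in R9 (0.94, SE 0.23, adjusted p = 0.0096, and 0.88 with an adjusted p of 0.076 without the 6 rats), and the summed level was 496, 1002 and 7274 in R9 and 149, 520 and 4229 in R1-R2. The highest sums were in R9874 and R2230, which were among the CA1 libraries with the fewest genes above 0 (15942 and 15768).

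Astrocytes, microglia and oligodendrocyte precursors gave smaller differences, beside 4.41% of all tested genes higher in R9 and 3.13% lower. All 10 astrocyte genes had differences above 0 (median 0.28) and 3 passed as higher in R9, namely Gfap, the astrocyte intermediate filament (0.43, SE 0.09, adjusted p = 0.0023), Slc1a2, the main glutamate transporter (0.43, SE 0.11, adjusted p = 0.011), and Gjb6, the gap junction protein connexin 30 (0.31, SE 0.09, adjusted p = 0.037). The astrocyte sum was 51616, 63694 and 74617 in R9 and 43354, 49284 and 58738 in R1-R2, with 12 of 16 R9 libraries above every R1-R2 library. The same 3 genes passed without the 6 rats, with Gjb6 at 0.41 (adjusted p = 0.0014), and without the 3 exceptions 2 did, Gjb6 being at 0.33 (adjusted p = 0.06). Of 11 microglial genes 4 were higher and 0 lower (median 0.38), among them Csf1r, the receptor that keeps microglia alive (0.23, SE 0.06, adjusted p = 0.0087), Itgam (0.51, adjusted p = 0.016) and Trem2 (0.52, adjusted p = 0.031). In oligodendrocyte precursors, Vcan (0.42, adjusted p = 0.033) and Neu4 (0.35, adjusted p = 0.037) were higher among 7 genes with a median of 0.27. No microglial or precursor gene passed without the 6 rats. Single rats ended the calls of Gjb6 (14 rats, largest adjusted p = 0.076 without R9870), Neu4 (12 rats, 0.062 without R2175), Vcan (7 rats, 0.06 without R9869) and Trem2 (0.055 without R9870).

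Markers of CA1 pyramidal neurons were not uniformly lower. Of 7 tested, 2 passed as lower in R9 and 0 as higher, only 1 (Wfs1) had a difference above 0, and the median was -0.50. Without the 6 rats 3 were lower with a median of -0.34. Without the 3 exceptions 2 were lower, with a median of -0.25 and 2 differences above 0. The summed level had medians of 11533 in R9 and 13562 in R1-R2, and 6 of 16 R9 libraries lay above the R1-R2 median. Over all tested genes, 4.41% were higher in R9 and 3.13% lower. Ndst4, a heparan sulfate sulfotransferase, had 13.9, 116 and 294 normalized counts in R9 and 184, 335 and 572 in R1-R2 (-1.53, SE 0.26, adjusted p = 0.00028). Nov, a secreted CCN family protein, had 207, 1170 and 1936 in R9 and 1522, 2162 and 3307 in R1-R2 (-1.03, SE 0.19, adjusted p = 0.00076). The R9 libraries were below the R1-R2 median in 16 of 16 for both genes and below every R1-R2 library in 12 and 11. In contrast, Wfs1, the endoplasmic reticulum protein that outlines CA1 in sections, had 1177, 6306 and 10048 in R9 and 1781, 5111 and 13265 in R1-R2 (0.14, SE 0.23, adjusted p = 0.76), with 13 of 16 R9 libraries above the R1-R2 median. Mpped1 differed by -0.51 and did not pass in all rats (adjusted p = 0.059), but it did without the 6 rats (-0.34, adjusted p = 0.04). The lowest R9 value of each of these 4 genes was in the library labelled CA1 of R9869, whose sum over the list was 2118 against 9172 or more in the other R9 libraries.

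Genes of neighbouring pyramidal and granule neurons passed in some lists only, beside 4.41% of all tested genes higher in R9 and 3.13% lower. None of 7 CA2 genes passed by limma (2 at an unadjusted p under 0.05), whereas edgeR and DESeq2 each called 1 as higher, Pcp4, named after its values were seen. The CA2 median was 0.43, but -0.18 in OB and -0.07 in young rats alone. None of 7 dentate granule genes passed by limma, edgeR or DESeq2 (2 at an unadjusted p under 0.05), and their median of -0.41 was 0.12 in OB rats alone. Among 8 CA3 genes, Bok, a BCL2 family member, was higher (0.60, SE 0.14, adjusted p = 0.0064) and Galr1, a galanin receptor, was lower (-1.45, SE 0.43, adjusted p = 0.033). Without the 6 rats neither passed (Bok at 0.57, adjusted p = 0.052). Cpne4, a copine, had 289, 1688 and 2662 in R9 and 324, 916 and 2459 in R1-R2 and did not pass (0.67, adjusted p = 0.085). The CA3 sum was 1753, 3404 and 4831 in R9 and 1433, 2231.9 and 4253 in R1-R2. Of 9 subicular genes, Scn4b, a sodium channel subunit, was higher (0.85, adjusted p = 0.0097), with 4571 at its highest against 613 in R1-R2, and Etv1 (-0.83, adjusted p = 0.0022) and Cntn6 (-0.77, adjusted p = 0.026) were lower. The median over the subicular list was 0.02, and -0.15 without the 6 rats and -0.29 without the 3 exceptions. Of 11 interneuron genes, 3 were lower and 0 higher, with a median of -0.09 by limma and -0.35 by edgeR. These were Gad1, an enzyme of GABA synthesis (-0.35, SE 0.10, adjusted p = 0.026), Reln, the secreted protein reelin (-0.47, SE 0.13, adjusted p = 0.024), and Htr3a, an ionotropic serotonin receptor (-0.64, SE 0.16, adjusted p = 0.01). Reln alone of the 3 passed without the 6 rats (-0.67, adjusted p = 0.0014). Leaving out R9870 alone ended the calls of Gad1 (adjusted p = 0.051), Cntn6 (0.051) and Galr1 (0.068, 1 of 9 such rats).

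Among the genes lower in R9 with the smallest p were several of neurons. Gda, guanine deaminase, a cytosolic enzyme of forebrain neurons, had 367, 662 and 1005 normalized counts in R9 and 883, 1089 and 1708 in R1-R2 (-0.81, SE 0.10, adjusted p = 4.2e-06), with 14 of 16 R9 libraries below every R1-R2 library. Nos1, neuronal nitric oxide synthase, had 276, 435 and 690 in R9 and 428, 820 and 1160 in R1-R2 (-0.86, SE 0.11, adjusted p = 9.3e-06). Nalcn, the sodium leak channel, differed by -0.46, Dpp6, a subunit of A-type potassium channels, by -0.35, Chl1, an adhesion molecule of the L1 family, by -0.76, Syt17, a synaptotagmin, by -0.72, and Myo5b, a vesicle motor, by -0.68. Each of these was below the R1-R2 median in 15 or 16 of 16 R9 libraries. Usp11 (-0.43), Dcaf12l1 (-0.40) and Magee1 (-0.40) had 14, 12 and 13 of 16 R9 libraries below every R1-R2 library. By size, the largest falls were those of Trhr (-1.59) and Tacr3 (-1.55), receptors for thyrotropin-releasing hormone and neurokinin B, Grin3a (-1.53), an NMDA receptor subunit, and Zswim2 (-1.56), Pappa2 (-1.46), Klhl14 (-1.40) and Slc38a4 (-1.39), all at medians of 238 or less. Pappa2 did not pass without R9872 (adjusted p = 0.052) or without R9869, and without the 6 rats Grin3a, Klhl14, Slc38a4 and Pappa2 did not (adjusted p = 0.086, 0.07, 0.098 and 0.17). Of the 15 genes with the smallest p in this direction, 4 carry no symbol.

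Lists for the state of the animal or tissue moved in part, beside 4.41% of all tested genes higher in R9 and 3.13% lower. Of 8 glucocorticoid-responsive genes 2 were higher in R9 and 0 lower (median 0.46). Fkbp5, a co-chaperone of the glucocorticoid receptor, had 844, 1183 and 1441 in R9 and 563, 809 and 1355 in R1-R2 (0.52, SE 0.09, adjusted p = 0.00027), and Plin4, a lipid droplet protein, differed by 0.69 (SE 0.13, adjusted p = 0.00079). Sgk1, a kinase induced by corticosteroids, had a difference of 0.61 and did not pass (adjusted p = 0.057). Of 10 clock genes 3 were higher and 1 was lower (median 0.19), including Per3 (0.53, SE 0.09, adjusted p = 0.00027) and Dbp (0.46, SE 0.09, adjusted p = 0.0015), which peak together over the day, and Arntl, which peaks at the opposite time (-0.37, SE 0.10, adjusted p = 0.014). Arntl did not pass without the 6 rats (-0.33, adjusted p = 0.16) or without the 3 exceptions (-0.34, adjusted p = 0.059), and in both cases 2 clock genes passed as higher. Fos (-0.75, adjusted p = 0.03) and Junb (-0.46, adjusted p = 0.0095), which neurons switch on with activity, were lower among 11 immediate early genes, all 11 of which had differences below 0 (median -0.27). Fos did not pass without R9872 (adjusted p = 0.056) or without R9860, nor without the 3 exceptions (0.095). None of 8 heat and cold shock genes (median 0.14) and none of 11 interferon-responsive genes (-0.09) passed by limma or edgeR, with 2 and 1 at an unadjusted p under 0.05 in limma, and DESeq2 called 2 (Hspa1b and Hspb1, higher) and 1 (Ifit2, lower), named after their values were seen. The interferon median was 0.17 in young rats alone. The hour of tissue collection was not tested.

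The series also differed in the other subfields of the same rats, and often not in the same way. In CA3, 1408 of 16471 genes were higher in R9 (8.55%) and 1659 lower (10.1%), and in DG 1653 of 16192 were higher (10.2%) and 1467 lower (9.06%). Oligodendrocyte genes had a median difference of 0.56 in CA1, -0.76 in CA3 (12 of 14 lower) and 1.0 in DG (14 of 14 higher). Their sum in R9 exceeded that in R1-R2 1.65-fold in CA1 and 2.18-fold in DG by the medians, and was 0.614 of it in CA3. Ependymal genes ran likewise, with medians of 1.0, -1.85 (8 of 10 lower) and 1.77 (7 of 9 higher). CA1 pyramidal markers had medians of -0.50, 0.88 and 0.07. CA3 libraries of R9 had lower sums of the CA3 markers, at 1397, 3031 and 5526 against 5667, 8575 and 14586 in R1-R2, ranges that did not overlap. Of 8 CA3 genes tested in CA3, 4 passed as lower in R9 and 0 as higher, and 2 had differences above 0 (median -0.98). The CA3 sum was highest in the CA3 library in 1 of 16 R9 rats and 13 of 18 R1-R2 rats, and the dentate granule sum was highest in the DG library in 12 of 16 and 18 of 18. What these marker levels contribute to the contrasts of CA1 with CA3 and with DG was not tested.

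**Figure D4:**
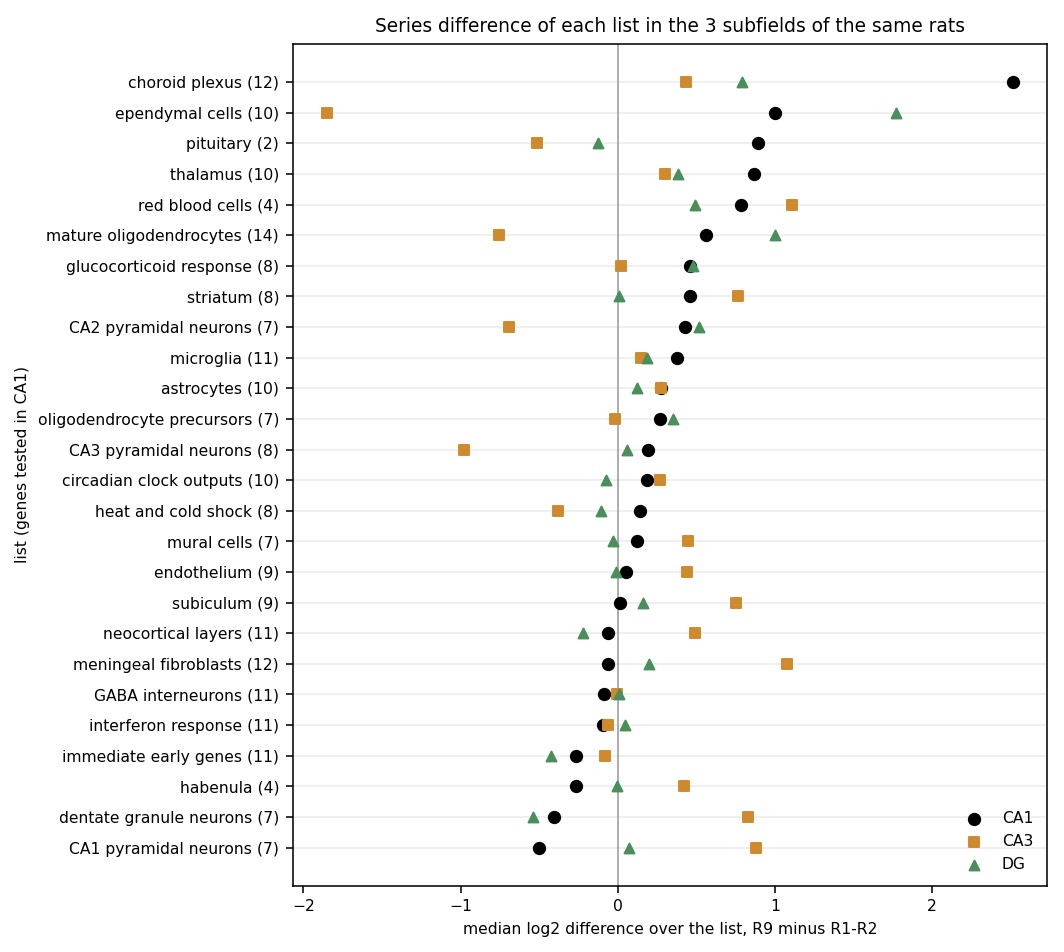
Median log2 difference of R9 minus R1-R2 (x axis) over each gene list (y axis, with the number of genes tested in CA1) in CA1, CA3 and DG. Points to the right are higher in R9, and the oligodendrocyte and ependymal medians lie above 0 in CA1 and DG and below 0 in CA3.

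Differences between subfields were tested within rats, as CA1 minus CA3 or CA1 minus DG of the same rat, compared between series. For CA1 minus CA3, 1338 of 16452 genes were higher in R9 (8.13%) and 915 lower (5.56%), and for CA1 minus DG 547 of 16301 were higher (3.36%) and 682 lower (4.18%). Against CA3, 13 of 14 oligodendrocyte genes were higher in R9, with a median of 1.38, and the CA1 library had the larger oligodendrocyte sum in 14 of 16 R9 rats and in 0 of 18 R1-R2 rats. The ependymal genes were higher in 8 of 10 (median 2.99), and the CA1 markers were lower in 5 of 7 (median -1.47). Against DG, 3 oligodendrocyte genes of 14 were lower (median -0.37) and 0 of 11 choroid plexus genes passed (median 1.89). The CA1 minus DG count depended on single rats. It was 30 without the 6 rats, 268 without R9870 and 2057 without R2233, and with the rat not used as a block it was 378, whereas CA1 minus CA3 gave 1575 without the 6 rats and 1933 with no block.

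**Figure D5:**
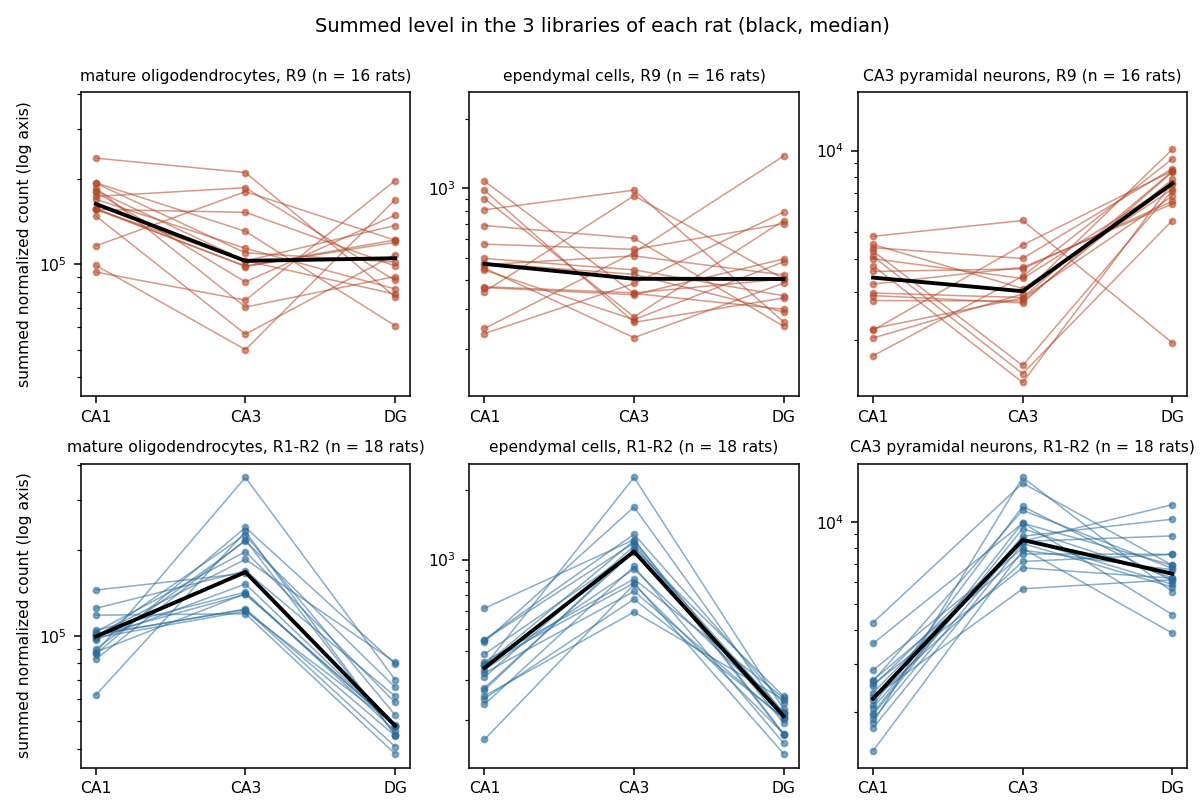
Summed normalized count (log y axis) of 3 lists in the CA1, CA3 and DG libraries (x axis) of each rat, 1 line per rat with the median in black, R9 above and R1-R2 below. In R1-R2 oligodendrocyte and ependymal sums peak in CA3 (medians 167690 and 1084), and in R9 the oligodendrocyte sum is highest in CA1 (163486), with CA3 at 102944.

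Of the 700 genes higher in R9 in CA1 and tested in all contrasts, 102 were also higher in CA3 (14.6%) and 327 in DG (46.7%), and 178 were lower in CA3 against 4 in DG. Of the 513 lower in CA1, 133 were lower in CA3 (25.9%) and 118 in DG (23.0%), while 56 were higher in CA3 and 5 in DG. Over all genes tested, 8.55% were higher in R9 and 10.1% lower in CA3, and 10.2% were higher and 9.06% lower in DG. The subfields share rats, so these counts are descriptions. Of the 16006 genes tested in all contrasts, 43 were called as higher in R9 in all 3 subfields and 41 as lower. Among those named above, Tns3, Slc1a2, Gjb6, Alas2 and Prkcd were higher in all 3, and Nalcn, Dpp6, Rasgrf1 and Fos were lower in all 3. Fos, for example, had -0.75 in CA1, -0.83 in CA3 and -1.08 in DG.

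A smaller set differed in CA1 and also within rats against both other subfields, with 34 genes higher and 63 lower. Among the 16006 genes tested in every subfield and contrast these were 33 and 63. Over all genes tested, 4.41% were higher and 3.13% lower in CA1. The shares were 8.13% and 5.56% for CA1 minus CA3, and 3.36% and 4.18% for CA1 minus DG. The 3 contrasts share the CA1 libraries, so the counts are descriptions. Its size depended on a few rats. Without the 3 exceptions 9 genes were higher, all in the set, and 35 lower, of which 30 were in the set. Without the 6 rats 1 was higher and 7 were lower, all in the set, where CA1 minus DG called only 11 genes as higher and 19 as lower. Mybph, a myosin-binding protein, had 659, 963 and 1209 normalized counts in CA1 of R9 and 478, 619 and 943 in R1-R2 (0.57), with 1.02 against CA3 (adjusted p = 1.6e-06) and 0.55 against DG (adjusted p = 0.011). Atoh8, a helix-loop-helix factor, had 30.8, 44.9 and 205 and 5.75, 23.6 and 33.7 (1.30), with 15 of 16 R9 libraries above every R1-R2 library. Arrdc2 (0.83), Sema4d (0.50), a semaphorin of oligodendrocytes and immune cells, and Ncoa3 (0.40), a nuclear receptor coactivator, were the others of smallest p that were higher. Among the lower genes were Gda, at -0.65 against CA3 (adjusted p = 0.022) and -0.63 against DG (adjusted p = 0.03), Cadps2, a regulator of dense-core vesicles, with 203, 746 and 1150 in R9 and 818, 1373 and 2020 in R1-R2 (-0.97, SE 0.17), at -1.62 and -1.07, and Dcn, at -2.27 and -1.36. Without the 6 rats Dcn still passed against DG (-1.36, adjusted p = 0.03), and Mybph (adjusted p = 0.06), Cadps2 (0.071), Gda (0.11), Arrdc2 (0.1), Atoh8 (0.2), Sema4d (0.3) and Ncoa3 (0.24) did not.

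The CA1 series difference was then compared between aged and young rats. No gene passed for aged minus young (0 of 16385, or 0%, by limma), 81 genes had an unadjusted p under 0.05 (0.494%), and no other tool was run for it. That share is below what uniform p-values would give, so the lack of calls does not show that the series difference was alike in aged and young rats. Within the rat groups, the median over the oligodendrocyte list was 0.62 in young, 0.83 in OG and 0.23 in OB rats, and the log2 difference of Mobp was 0.90 in young, 0.92 in OG and 0.76 in OB rats, that of Kif3a -0.32, -0.46 and -0.44, and that of Gda -0.75, -0.77 and -0.91. Ndst4 had -1.27, -1.21 and -2.09. Ttr had 3.66, 8.22 and 3.56, and R9862 and R9865 are among the OG rats of R9. Galr1 had -2.25 in young and -2.58 in OB rats and 0.31 in OG rats. With single rat groups of 5 to 7 rats per series, 25 genes passed in young, 3 in OG and 9 in OB rats alone.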

How the data were processed

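Poly-A RNA of CA1, CA3 and DG was sequenced on the Ion Proton. Per the labels and methods, the authors used TopHat2, Bowtie2, Partek Flow, the rat build rn5, featureCounts 1.4.4 and DESeq2 1.10.1 (versions from the submitters' processing notes). The deposited table holds a signal, gene counts divided by a DESeq2 size factor by the authors (normalized counts), for 26689 genes in 102 samples. Values were whole multiples of 1 read in 100% of cases, within 0.01 read, and these recovered reads gave the depth and the count models. All columns were mapped.

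Genes averaging 5 or more over the 34 CA1 samples were tested with limma 3.58.1 (trend, R 4.3.3) on log2(value + 1), R9 minus R1-R2 with rat group as covariate, two-sided, Benjamini-Hochberg adjusted over all genes tested, with calls at an adjusted p under 0.05. CA3 and DG were fitted alike, and CA1 minus CA3 and CA1 minus DG on differences within rats. The samples of a group are separate rats. The 3 subfields of a rat share the rat number, and the mean correlation of their deviations from group means was 0.0954 for CA1 with CA3 and 0.0542 for CA1 with DG over 34 rats. edgeR 4.0.16 and DESeq2 1.42.0 on recovered reads were alternatives, as were other pseudocounts and filters, TMM scaling, single rat groups and each rat left out. Scripts were tested on simulated data.

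The rat identifier series and the 26 gene lists (267 genes, of which 241 were found by symbol and 228 tested) were chosen with earlier results of these data known. Named genes are, per list, up to 3 of the highest level and up to 3 of the smallest p, the 15 of smallest p and 10 of largest difference in each direction, those without overlap, and those called in CA1 and within rats against both other subfields. Of the genes tested in CA1, 1974 carry no symbol, and these are not named. The count of reads limits the precision of low genes. Reads were not stated to be assigned by strand, so overlapping genes cannot be told apart. The study's other sequencing platform and tables were not used here. The rule gives 162 genes, of which 96 are named, and a gene of the rule is not reported here.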

Additional observations from a re-analysis of the deposited data

Results flagged for a closer look

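Within each of the 6 groups of CA1 libraries (series by rat group), the summed level of each list was checked for a library far from the others of its group by Dixon's gap test on the log2 scale. Of 156 pairs of group and list, 27 were set apart (17.31%), where chance gives about 1 in 20. Several fall in the same libraries, and no cause was tested.

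In R9 OG rats, R9869 had 2118.3 for CA1 pyramidal neurons (nearest 10103.9), 133.4 for habenula (248.5) and 19674.5 for striatum (2620.4). R9870 had 180645.7 for choroid plexus against 993.9 in the nearest OB rat, and 9459.0 against 887.7 for meningeal fibroblasts. In R1-R2, R2231 had 11537.8 (453.6) for choroid plexus and 11988.9 (1187.7) for meningeal fibroblasts, while R2232 had only 1.9 (49.1) for choroid plexus. R2175 had 6561.2 (848.1) for meningeal fibroblasts, 3022.5 (1608.3) for mural cells, 1283.0 (991.6) for thalamus and 61746.3 (87102.1) for mature oligodendrocytes.

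Vascular lists were low in R9780, at 1975.7 for endothelium and 1021.2 for mural cells, and in R9782, at 1681.3 and 909.0, and endothelium was low in R1930, at 2036.6. The thalamic sum of R9879 was 2676.7 against 1179.6 in the nearest young R9 rat. The oligodendrocyte sum was low in R9781, at 99305.6, and high in R2230, at 144888.3. R2230 was also low for neocortical layers, at 3088.4, and for clock genes, at 7333.6. R2221 was high for CA2 pyramidal neurons, at 7417.5, and low for microglia, at 4643.8. R1931 was low for dentate granule neurons, at 979.6, and high for heat and cold shock genes, at 7961.3. The pituitary sum of R9874 was 0.0 against 24.7 in the nearest OB rat, at levels of few reads. R2232, R2230 and R9874 were also the CA1 libraries with the fewest genes above 0 (15153, 15768 and 15942). R9874 and R2232 had the highest subicular sums of their series (9361 and 10289) and the lowest interneuron sums (4368 and 5157). The cause was not tested.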

How the results depend on the processing

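The CA1 comparison gave 1236 genes, and between 1068 and 1390 with pseudocounts of 0.5 or 5, a mean of at least 20, no filter on low values, no covariate, TMM scaling or edgeR. DESeq2 gave 1888 (1119 higher). All 1236 kept their sign in each of these that tested them. Single rat groups gave fewer, at smaller n, with 25 in young rats (18 higher, 7 lower), 3 in OG rats (3 higher, 0 lower) and 9 in OB rats (1 higher, 8 lower). Alternatives chosen after seeing the data gave 661 without the 3 exceptions (361 higher, 300 lower), 342 without the 6 rats (171 in each direction) and 874 without the rats numbered R19 and R97 (340 lower). Leaving out 1 rat at a time gave 899 to 1489 genes (504 to 888 higher, 395 to 626 lower). The cause of these changes was not tested.

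The within-rat differences use the rat as a block, through pairing by rat number. With no replicate block CA1 minus CA3 gave 1933 genes instead of 2253, and CA1 minus DG 378 instead of 1229. CA1 minus DG gave 30 genes without the 6 rats. Leaving out 1 rat gave 1964 to 2465 for CA1 minus CA3 and 268 to 2057 for CA1 minus DG. Aged minus young gave 0 genes under every alternative run.

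Over 96 named genes and 14 alternatives, the values kept direction and side of the threshold in 988 cases, kept direction but lost the call in 340 and gained it in 7. The direction turned in 5 cases, for Lum (0.60) and Galr1 (0.31) in OG rats alone, Igf2 (-0.074) in young rats alone, and Rarres2 in OB rats alone (0.035) and without the 6 rats (0.19). List medians had the opposite sign in 24 cases over 10 lists, most of them lists whose medians were near 0 or had no call. Those with a call and a median beyond 0.1 were red blood cells in OG rats alone (-0.040) and pituitary in OB rats alone (-1.30) and with no filter on low values (-0.0048), and CA2, dentate granule and striatal medians turned in single rat groups. Of 88 named genes called, 18 lost the call without at least 1 single rat. Depth limits genes of few reads, such as those of the pituitary list.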
